A study of Mus musculus with 22 samples.

Results

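The loops described here are 545 contacts between cis-regulatory elements (CREs, the promoters and enhancers that carry H3K27ac) that lie in a mixed position with respect to CTCF loops. Both of their anchors sat within at least 1 structural loop, so they were encompassed, and at least 1 other structural loop had one foot inside the CRE loop and the other foot outside it, so they were also crossed. The rule used the positions of anchor midpoints and no loop strength, although the CRE and structural loops it was applied to had been called from the same maps. They are 545 of the 3613 CRE loops of at most 500 kb, out of 4642 CRE loops of any size and 16370 loops in the whole table. Of the other CRE loops of at most 500 kb, 917 were encompassed only, 981 were crossed only and 1170 were neither.

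In situ Hi-C was carried out on G1E-ER4 cells, a mouse erythroblast line that lacks GATA1 apart from an inducible fusion protein. The paper's methods name no inducer of this fusion protein. In every group both copies of CTCF carried an auxin-inducible degron and mCherry, and a retrovirus supplied the plant protein OsTiR, which with auxin sends tagged CTCF to degradation. Cells of every group were held in prometaphase with nocodazole and, except for the prometaphase groups, washed free of it, and the +auxin groups were CTCF-depleted during the arrest and afterwards. The stages were prometaphase (0 min after release), ana/telophase (30 min), early-G1 (60 min) and mid-G1 (120 min), each sorted by DNA content and by mCherry. The retrovirus also carried GFP, which for the ana/telophase groups alone was fused to a mitotic degron, so these groups differ from the others in the construct. There were 2 libraries for each treatment at the first 3 stages and 3 for each at mid-G1, 18 libraries in all, and 4 further triptolide libraries were not used here.

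The loop and boundary tables used here hold 1 value per feature for each of the 8 conditions, made from the merged replicates, and the maps of single replicates were not analysed here. These tables allow no test between treatments, and differences are described by medians, counts and the SD of the medians of the 20 chromosomes, which says how far parts of the genome differ and nothing of cultures. Loop strength is the observed number of contacts over the number expected from the surrounding pixels, averaged over the summit and its neighbours, so that 1 means no enrichment. The tables do not give the number of contacts behind a single loop.

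Structural loops have CTCF and cohesin at both anchors. Cohesin extrudes chromatin until it meets CTCF bound in a blocking orientation, and the loop that results can bring CREs inside it closer together. The same CTCF sites can also stand between a promoter and an enhancer and keep them apart. The CRE loops described here are placed so that both relations apply at once, and the question was how they behave when CTCF is lost on the way out of mitosis.

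The anchors of the structural loops are what defines the position of these CRE loops, so letters like those CTCF binds are shown for a few of them. The motif searched, on both strands in 10 kb around an anchor midpoint of the mm9 genome, was the core of the CTCF consensus, with the letters CCA, 2 bases of any kind, AG, 2 bases of any kind and GGCA. A stricter form with CCAC, 1 base of any kind, AG, 2 bases of any kind and GGC was added after the data had been seen. The runs below are written 5′ to 3′ on the strand given, with the matching letters in capitals. Loops carry their number in the deposited table, with L for a member and S for a structural loop.
S4310 and S5893, shared upstream anchor, chr9:77444327-77444355, plus strand, around and across the Gclc loop L8785: ggctatcgCCACTAGGGGGCAgggcaggc
S4310, downstream anchor, chr9:77883320-77883348, plus strand, around the Gclc loop L8785: tctggatcCCACAAGGTGGCAggagagag
S215, anchor inside the Khdrbs1 to Ptp4a2 loop L2244, chr4:129462581-129462609, plus strand: tattattcCCACTAGAGGGCActggtgag
S150, downstream anchor, chr5:148131441-148131469, minus strand, across the Rasl11a loop L7929: tgtaatggCCAGTAGATGGCAgtacagga
S10484, upstream anchor, chr3:145991080-145991108, plus strand, around the Rpf1 loop L4904: taatttggCCACTAGGTGGCAaaagagtt
S10484, downstream anchor, chr3:146608918-146608945, minus strand, around the Rpf1 loop L4904: caaacgctCCACTAGGTGGCgggcgtga
S1320 and S4507, shared downstream anchor, chr10:60799025-60799052, minus strand, around and across the Slc29a3 loop L871: cagtgtggCCACCAGGTGGCgcaagtga

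A plus-strand match at an upstream anchor and a minus-strand match at a downstream anchor point towards each other, as at both anchors of S10484. A match in these windows is a description of letters and not of bound CTCF. At the 558 structural loops that encompass a member, the first motif was present at 51.8% of upstream and 53.8% of downstream anchors. At the 786 that cross a member it was present at 50.4% and 50.9%, and 24.0% of all 10 kb tiles of the genome held it. Structural loops that did neither were much the same, at 52.1% and 51.1%. The members' own anchors held it at 39.3% upstream and 37.4% downstream, against 38.4% to 43.9% in the other classes of CRE loops. A single word, CCAGAAGAGGGCA, made up 48.9% of all matches to this motif in the genome, which is why the stricter motif was added. The stricter motif was present in 6.45% of tiles, at 27.2% and 29.9% of the encompassing anchors, at 25.6% and 25.4% of the crossing anchors, and at 9.72% and 11% of the members' own anchors. It was present at 26.1% and 24.8% of the anchors of structural loops with neither role, and at 11.2% to 12.3% in the other classes of CRE loops. Where both anchors held the first motif in 1 direction only, matches pointed towards each other at 38 of 90 encompassing (42.2%) and 55 of 126 crossing loops (43.7%), and at 43.2% of the 662 such structural loops that neither encompassed nor crossed a member. In 30 kb windows the shares for this motif were 52.0% (42.3 to 61.7), 48.0% (40.2 to 55.9) and 39.7% (36.3 to 43.3). With the stricter motif, matches pointed towards each other at 23 of 41 encompassing loops (56.1%, 95% Wilson interval 41.0 to 70.1) and at 30 of 44 crossing loops (68.2%, 53.4 to 80), against 63.0% of 227 structural loops with no such role.

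Members spanned 70 to 500 kb, with a median of 180 kb and quartiles of 110 and 300 kb. They were smaller than crossed only loops, with a median of 230 kb, and larger than encompassed only loops, with a median of 100 kb. Most were called at 10 kb (470) and the rest at 25 kb (75). The upstream side alone was crossed in 201 members, the downstream side alone in 202, and both sides in 142. One structural loop encompassed 328 members, 1 crossed 278, and 144 had exactly 1 of each. The largest numbers were 8 encompassing and 10 crossing loops. In 372 members every crossing loop lay within an encompassing loop, and in 290 a crossing and an encompassing loop shared an anchor, so that most members sat in nests of CTCF loops. Members are not independent of each other: linked by shared structural loops they formed 308 groups, of which 183 held 1 member and the largest held 10.

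The structural loops around and across the members were much weaker without CTCF, and 96.2% of the encompassing and 95.9% of the crossing loops were called only without auxin. Of all structural loops 94.6% were, so these shares were near the background, and loops called from the -auxin maps alone were also chosen for being high there. Encompassing loops, with a median size of 505 kb, had a median strength of 1.07, 1.83, 2.29 and 2.66 from prometaphase to mid-G1 without auxin, and of 1.03, 1.24, 1.31 and 1.37 with auxin. Crossing loops, with a median size of 260 kb, went from 1.08 to 2.43 without auxin and from 1.01 to 1.28 with it. The median mid-G1 log2(+auxin/-auxin) was -0.93 for both sets, with an SD over chromosomes of 0.15 and 0.14, against -0.83 for the 3586 structural loops with no such role. In both sets over 95% of loops were weaker in mid-G1 with auxin (544 of 558 and 770 of 786, or 97.5% and 98.0%). These shares were near the background, 97.3% of all structural loops and 97.2% of those with no such role. The 93 loops that encompassed one member and crossed another had a median of -0.92, so that both kinds of structural loop were alike in their loss of strength.

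As a group the members differed little between the treatments, although the structural loops about them were weak in CTCF-depleted cells. From prometaphase to mid-G1 their median strength was 1.06, 1.5, 1.60 and 1.49 without auxin and 1.05, 1.55, 1.66 and 1.60 with auxin. The median log2(+auxin/-auxin) at these stages was 0.02, 0.06, 0.11 and 0.09, with SDs over chromosomes of 0.13, 0.10, 0.09 and 0.15. None but the early-G1 value was larger than that spread, and taken as the log2 ratio of the mean strengths the 3 post-mitotic values were 0.02, 0.05 and 0.01. Over all 16370 loops the median mid-G1 change was -0.38, and over all CRE loops of at most 500 kb it was -0.01.

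The members' median lay between those of the loops that had only one of the positions. In mid-G1 encompassed only loops had a median change of -0.17 (SD over chromosomes 0.05), crossed only loops 0.21 (0.10), and loops that were neither -0.03 (0.06). The same order was seen in ana/telophase, at -0.12, 0.06 and 0.10 for encompassed only, members and crossed only, and in early-G1, at -0.13, 0.11 and 0.19. In prometaphase, when structural loops had a median strength of 1.06, the medians of the 4 classes lay between -0.02 and 0.02. These class differences were not tested, since the tables used hold merged values, and the quartiles of the members, -0.14 and 0.32 in mid-G1, overlapped those of every other class.

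**Figure D1:**
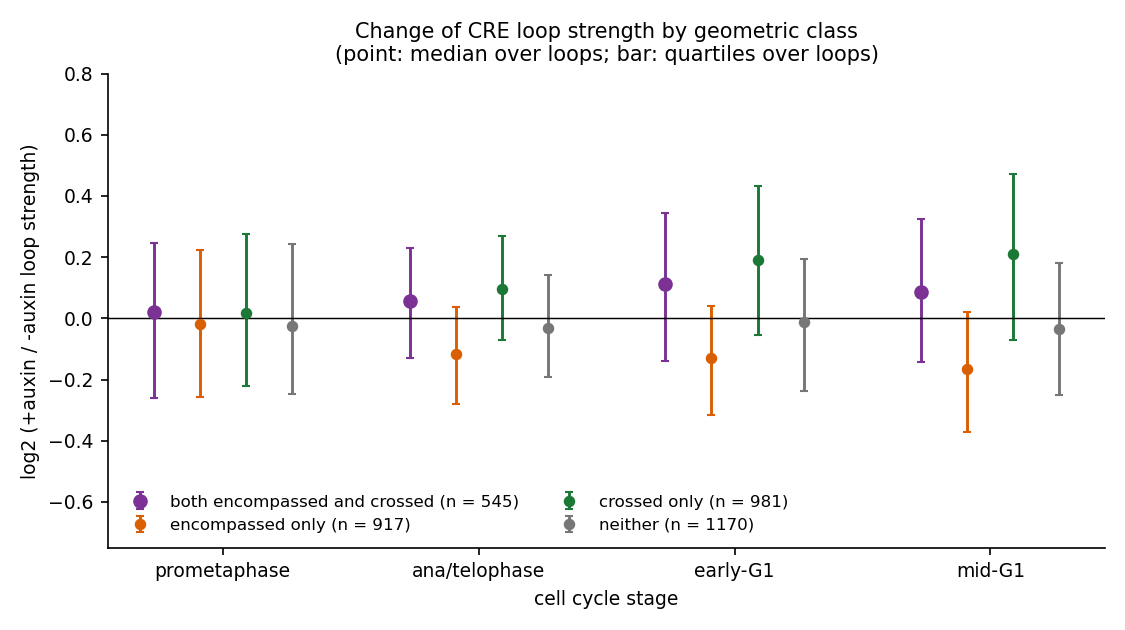
The log2 ratio of loop strength with over without auxin (y axis) at the 4 stages (x axis) for the 4 geometric classes of CRE loops of at most 500 kb; points are medians and bars quartiles over loops, not errors over cultures. After mitosis the members (purple, mid-G1 median 0.09) lie between encompassed only (orange, -0.17) and crossed only loops (green, 0.21).

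The small median covered changes in both directions. In mid-G1, 325 members (59.6%) were stronger with auxin, where 22.9% of all loops were. At least 1.5-fold stronger were 55 members (10.1%), against 2.83% of all loops, and at least 1.5-fold weaker were 41 (7.52%), against 36.7% of all loops. All CRE loops of at most 500 kb were nearer, at 7.64% stronger and 7.09% weaker, with any gain in 49.3%, and loops that were neither had 5.30% stronger and 7.86% weaker. Past 2-fold the order of the directions was the opposite, with 6 members stronger (1.10%) and 14 weaker (2.57%). No 2-fold share of all loops or of other CRE loops is given here, so this order cannot be called particular to the members. Encompassed only loops were at least 1.5-fold stronger in 1.20% and weaker in 9.81% of cases, and crossed only loops in 15.1% and 3.36%, so that the members lay between the other classes in both shares. From ana/telophase to mid-G1, 229 members were stronger in every +auxin map and 126 weaker in every one, which is 42.0% and 23.1%, against 12.5% and 61.4% of all loops. The same shares were 10.8% and 49.0% of encompassed only and 50.4% and 15.5% of crossed only loops. The mid-G1 changes ranged from -2.02 to 1.5.

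The share of members with any gain was higher after mitosis, while the counts past 1.5-fold did not follow that order. Stronger with auxin were 286 members in prometaphase (52.5%, against 45.6% of all loops), 319 in ana/telophase (58.5%, against 26.4%) and 342 in early-G1 (62.8%, against 25.3%). In prometaphase 39 members (7.16%) were at least 1.5-fold stronger, against 6.46% of all loops, and 35 (6.42%) at least 1.5-fold weaker, against 9.52%, so the share of stronger members was near that of all loops before the structural loops returned. In ana/telophase 10 members (1.83%, against 0.886%) were that much stronger and 26 (4.77%, against 20.4%) that much weaker. Of all CRE loops of at most 500 kb, 2.02% were that much stronger at this stage and 3.35% that much weaker. Beside these CRE loops the members thus showed no excess of gains past 1.5-fold then. In early-G1 the member counts were 39 (7.16%, against 2.55%) and 40 (7.34%, against 31.4%), where those CRE loops had 6.26% and 5.90%. Any gain was seen in 49.5%, 49.1% and 52.1% of those CRE loops from prometaphase to early-G1. All loops here include the 4837 structural loops, whose median mid-G1 change was -0.87.

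The calls of the authors gave a like picture from the same maps. Every loop in the table was called in at least 1 treatment, so the shares are of called loops. Of the members, 229 (42.0%, 95% Wilson interval 37.9 to 46.2) were called only with auxin, against 14.6% of all loops. A further 195 (35.8%, 31.9 to 39.9) were called only without auxin, against 71.1% of all loops, and 121 (22.2%) in both, against 14.4%. Of all CRE loops of at most 500 kb, 31.2% were called only with auxin, 42.0% only without it and 26.7% in both. Called only with auxin were 12.2% of encompassed only, 49.6% of crossed only and 25.7% of the loops that were neither. Members called only with auxin had a median mid-G1 change of 0.30 and those called only without it of -0.22, which follows in part from calling on the same contacts. First called in early-G1 were 155 members without auxin (28.4%, against 34.2% of all loops) and 209 with it (38.3%, against 15.4%). These shares were 32.0% and 32.3% of all CRE loops of at most 500 kb, 42.3% and 24.5% of encompassed only and 23.4% and 41.8% of crossed only loops. The 75 members with 25 kb summits were called only with auxin in 60.0% of cases and the 470 with 10 kb summits in 39.1%, although their median mid-G1 changes were near each other, 0.10 and 0.08.

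The stage at which a member was strongest was compared next. Without auxin, 145 members (26.6%, 23.1 to 30.5) were strongest in ana/telophase among the 3 post-mitotic stages, where 10.4% of all loops and 24.7% of all CRE loops of at most 500 kb were. A further 227 (41.7%) peaked in early-G1, against 31.4% of all loops, and 173 (31.7%) in mid-G1, against 58.3%. The ana/telophase share was 13.2% among encompassed only and 35.6% among crossed only loops, with the members between them again. With auxin the ana/telophase share was 20.9% of members (18.7% of all loops), 17.0% of encompassed only and 20.8% of crossed only loops, so the 3 classes were nearer each other. Early-G1 was then the peak of 296 members (54.3%, against 41.1% of all loops) and mid-G1 of 135 (24.8%, against 40.2%). For all CRE loops of at most 500 kb these shares with auxin were 52.0% and 27.7%. Strength was higher in ana/telophase than in prometaphase in 482 members without and 514 with auxin (88.4% and 94.3%, against 91.2% and 80.3% of all loops), with median log2 steps of 0.47 and 0.49. For this step the other 3 classes were close by, at 87.9% to 94.9% without and 89.97% to 92.2% with auxin. The step from ana/telophase to early-G1 was 0.09 without and 0.14 with auxin. From early-G1 to mid-G1 the median log2 step was -0.07 in both treatments, and 214 members without and 175 with auxin were higher in mid-G1 (39.3% and 32.1%). These shares were 41.9% and 36.8% in loops that were neither, 48.5% and 38.9% in encompassed only and 28.4% and 28.5% in crossed only loops.

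Among members of greater size the change was nearer zero or negative. The median mid-G1 change was 0.15 for the 303 members up to 200 kb, 0.07 for the 112 over 200 to 300 kb and -0.03 for the 130 over 300 to 500 kb, with SDs over chromosomes of 0.18, 0.14 and 0.25. Called only with auxin were 45.5%, 46.4% and 30.0% of them, against 55.3%, 45.7% and 45.3% of crossed only and 11.9%, 17.4% and 6.98% of encompassed only loops of the same sizes. In median change, at each size the members lay between the encompassed only loops (-0.15, -0.24 and -0.25) and the crossed only loops (0.32, 0.19 and 0.12). The 33 members of 450 to 500 kb, just inside the size limit, had a median of -0.04, and the 13 encompassed and crossed CRE loops over 500 and up to 550 kb, just outside it, had -0.07.

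**Figure D2:**
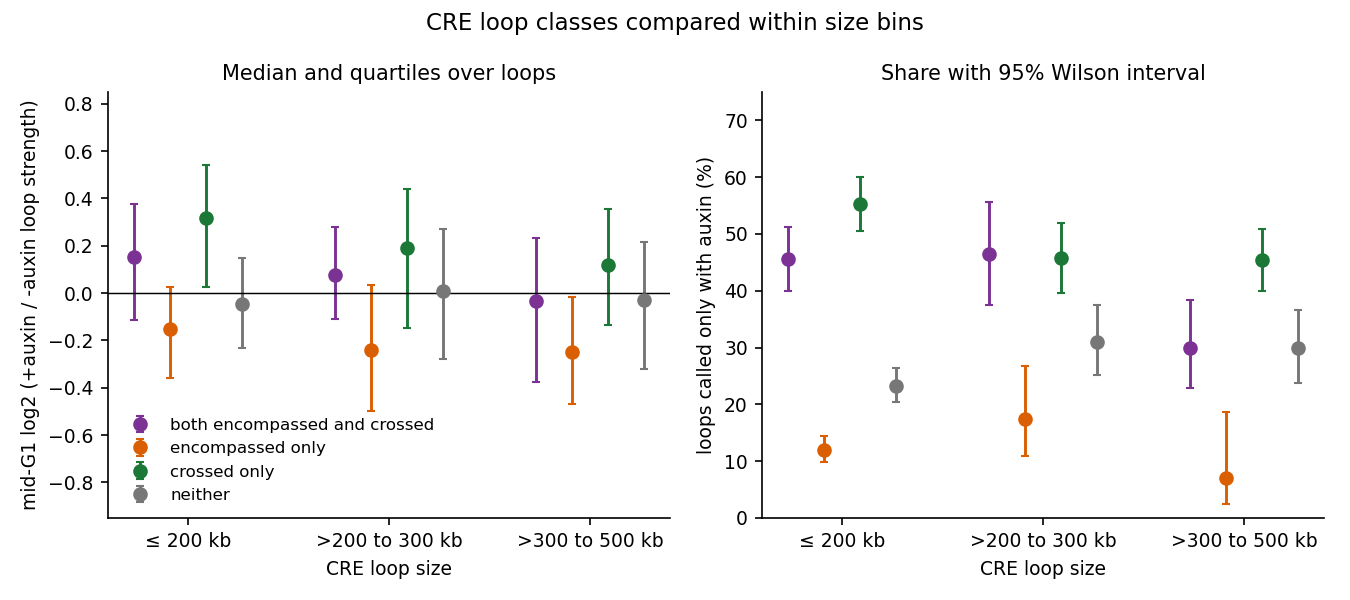
Left, mid-G1 log2 ratio of loop strength with over without auxin (median and quartiles over loops); right, percent of loops called only with auxin with 95% Wilson intervals, both by size of the CRE loop and geometric class. In all 3 size bins the members' median change (0.15, 0.07 and -0.03) lies between those of encompassed only and crossed only loops.

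Within the members, the change was ordered by how near the structural anchors were. The distance from a CRE anchor to the nearest crossing anchor inside the loop, measured from the CRE anchor which that crossing loop covers, is called s_i-min. Its median was 70 kb, with quartiles of 40 and 130 kb and a range of 2.5 to 470 kb. The limits used to divide members by distance were set after the values had been seen. The median mid-G1 change was 0.27 in the 122 members with an s_i-min up to 30 kb, 0.18 in the 133 from there to 60 kb, 0.05 in the 100 from there to 100 kb and -0.03 in the 190 above that, with SDs over chromosomes of 0.28, 0.20, 0.26 and 0.16. Stronger with auxin were 76.2%, 68.4%, 56.0% and 44.7% of them. Across the 545 members, which share maps and in part anchors, Spearman's correlation coefficient between s_i-min and the mid-G1 change was -0.33, and in prometaphase it was 0.00.

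The second distance is the gap from a CRE anchor to the nearest anchor of an encompassing loop. Its median was 47.5 kb, and in 68 members it was 0, so that the CRE loop and the encompassing loop shared an anchor. These 68 had a median mid-G1 change of -0.13, and the 106 with a gap up to 20 kb had -0.12. The 125 members with a gap over 20 to 50 kb had 0.09, the 110 over 50 to 100 kb had 0.22, and the 136 with a longer gap had 0.23. Called only with auxin were 20.6%, 22.6%, 43.2%, 55.5% and 55.9%. Spearman's correlation coefficient between gap and mid-G1 change over the 545 members was 0.38, against 0.00 in prometaphase, 0.30 in ana/telophase and 0.36 in early-G1.

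**Figure D3:**
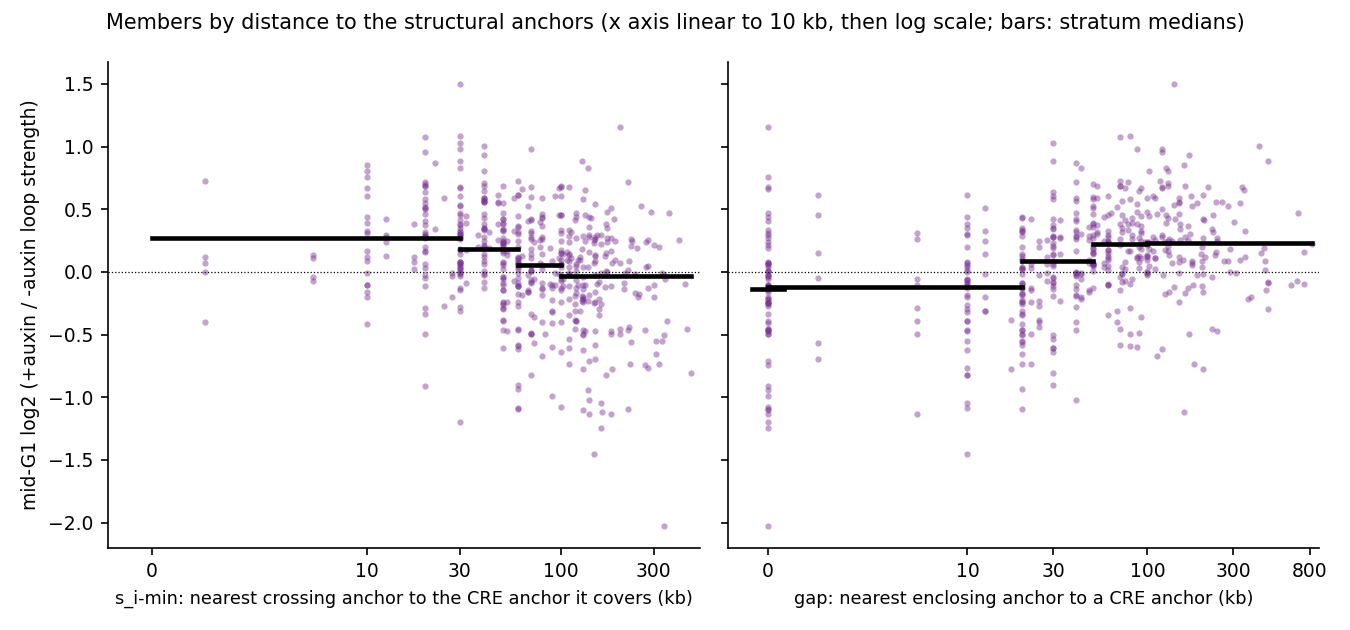
Mid-G1 log2 ratio of loop strength with over without auxin (y axis) of each of the 545 members against s_i-min (left) and against the gap to the nearest encompassing anchor (right), both in kb on an axis that is linear up to 10 kb and logarithmic above; black bars are the medians of the distance classes given in the text. The medians go from 0.27 to -0.03 with growing s_i-min and from -0.13 to 0.23 with growing gap.

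With both distances used at once, the members fell further apart. The 184 members with a gap over 20 kb and an s_i-min up to 60 kb, far from the encompassing anchors and close to a crossing one, had a median mid-G1 change of 0.28 (quartiles 0.08 and 0.53, SD over chromosomes 0.14). Of these, 152 (82.6%) were stronger and 111 (60.3%, 95% Wilson interval 53.1 to 67.1) were called only with auxin. The 103 members with a gap up to 20 kb and an s_i-min over 60 kb had a median of -0.22 (quartiles -0.53 and 0.02, SD 0.30). Of these, 28 (27.2%) were stronger and 21 (20.4%, 13.7 to 29.2) were called only with auxin. The remaining 71 with both distances short had -0.04, and the remaining 187 with both long had 0.09. The first and the second of these 4 groups had median mid-G1 strengths of 1.19 and 1.85 without auxin, but of 1.48 and 1.59 with it. The groups thus differed mainly in the maps with CTCF, and since the -auxin strength is part of the change, the change and that strength are not independent.

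Members of like size were also compared. The gap gave the same order of mid-G1 medians in each size class. Up to 200 kb, the 109 members with a gap up to 20 kb had a median mid-G1 change of -0.11 and the 194 with a longer gap had 0.27. Over 300 kb these medians were -0.39 for 38 and 0.08 for 92 members. For s_i-min the medians up to 200 kb were 0.26 for 174 members with up to 60 kb and 0.01 for 129 with more. Over 200 to 300 kb they were 0.10 for 43 and 0.04 for 69 members, with SDs over chromosomes of 0.22 and 0.29, and in ana/telophase the order was the opposite, 0.03 and 0.09. Over 300 kb they were 0.03 for 38 members and -0.07 for 92, with SDs over chromosomes of 0.36 and 0.27. The order by s_i-min did not hold over 300 kb in early-G1, with medians of -0.05 and -0.02, nor in the calls, where 26.3% of the 38 and 31.5% of the 92 were called only with auxin and 57.9% and 45.7% only without it.

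A short gap also brings the pixel of the CRE loop near that of a structural loop. In 36 members a structural loop lay 20 kb from the CRE loop at the farther of its anchors, and their median mid-G1 change was -0.46. Among members with a gap up to 20 kb, the 62 with a structural pixel within 40 kb had a median of -0.39 and the 112 with none so near had -0.05. Among members with a longer gap the same medians were 0.11 for 49 and 0.19 for 322. How far contacts of a neighbouring structural loop enter the strength of these CRE loops was not tested.

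Members were also divided by the number and strength of the structural loops. Divided by the mid-G1 -auxin strength of the strongest encompassing loop, the median mid-G1 change was 0.25 in 91 members up to 2, 0.10 in 194 over 2 to 3, 0.07 in 149 over 3 to 4 and -0.0014 in 111 above that. By the strongest crossing loop the same divisions gave 0.04, 0.06, 0.24 and 0.15, with no steady order. Members crossed by 1 structural loop had a median mid-G1 change of 0.04 (n = 278), by 2 of 0.13 (n = 113), by 3 or 4 of 0.16 (n = 102) and by 5 or more of 0.24 (n = 52), with SDs over chromosomes of 0.10, 0.28, 0.26 and 0.30. The number of encompassing loops gave 0.10, 0.03 and 0.12 for 1, 2 and 3 or more, with no order. In 236 members the strongest crossing loop was stronger in mid-G1 -auxin than the strongest encompassing loop, and their median change was 0.19, against 0.02 for the other 309. Members crossed on both sides had 0.17, and those crossed only upstream or only downstream had 0.04 and 0.08. These features go with size and distance: the median size was 150 kb in members crossed once and 322.5 kb in those crossed 5 or more times.

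Boundaries of chromatin domains, called from the same maps but not used to choose the members, lay inside 241 members (44.2%, 40.1 to 48.4). They lay inside 10.5% of encompassed only, 59.4% of crossed only and 28.7% of the loops that were neither, classes that also differ in size. The rule places a structural anchor inside every crossed loop, and the paper describes CTCF as often present at domain boundaries. These shares are therefore not independent of the rule. The 208 distinct boundaries inside members had a median strength (ΔIS, the drop of the insulation score at the boundary) of 0.107, 0.454, 0.795 and 0.896 from prometaphase to mid-G1 without auxin, and of 0.0982, 0.262, 0.445 and 0.480 with auxin. The median mid-G1 log2 change of these boundaries was -0.67 (SD over chromosomes 0.62), against -0.48 over all 6376 boundaries. Inside all CRE loops of at most 500 kb it was -0.60. It was -0.70 inside crossed only loops, -0.24 inside encompassed only loops and -0.39 inside loops that were neither. By the clusters that the authors deposited, 54 of the 208 (26.0%) were in cluster1, with a median mid-G1 change of -1.92, 86 (41.3%) in cluster2 (-0.75), 59 (28.4%) in cluster3 (-0.11) and 9 (4.33%) in cluster4 (0.63). Over all boundaries these shares were 20.4%, 31.9%, 27.1% and 9.25%, with 11.3% in cluster5, which held none of the 208. Boundaries inside all CRE loops of at most 500 kb had 19.0%, 44.1%, 30.8% and 5.54%, and 0.545% in cluster5. The authors formed the clusters from boundary strength after mitosis in both treatments, so the order of changes by cluster was set beforehand. Over all boundaries the median mid-G1 changes of cluster1 to cluster4 were -1.53, -0.70, -0.04 and 0.69. The 304 members with no boundary inside had a median mid-G1 change of 0.05, the 182 with 1 boundary 0.16, and the 59 with more 0.10.

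Of the members, 160 (29.4%, 25.7 to 33.3) had the start of a protein-coding gene in both anchor summits, 250 in 1 and 135 in none. Both anchors held a start in 19.3% of encompassed only and 49.1% of crossed only loops, and in 36.9% of the loops that were neither. The members' median mid-G1 change was 0.18, 0.08 and -0.01 with starts at both anchors, at 1 and at none, with SDs over chromosomes of 0.25, 0.19 and 0.20. The loops that were neither had 0.05, -0.04 and -0.16, and the same order, so it was not limited to members.

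The loops named next were taken by a rule: among the 284 members with a strength of at least 1.5 in some map and a change of one sign after mitosis, the 6 with the largest gain and the 6 with the largest loss in mid-G1. All 6 with a gain were called only with auxin, and all 6 with a loss only without it. The values chose them, so they illustrate the 2 ends of the range and are no evidence for it. Positions are of the anchor summits in mm9.

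The largest gain was at Rasl11a, a Ras-like small GTPase gene. Loop L7929 joins the start of Rasl11a (chr5:147650001-147660000) to a place with no protein-coding gene 100 kb downstream (chr5:147750001-147760000). Its strength from prometaphase to mid-G1 was 1.48, 1.08, 0.900 and 0.677 without auxin, and 0.984, 1.68, 2.06 and 1.92 with auxin. It faded below the local background in control cells and built up in CTCF-depleted cells, with a mid-G1 log2 change of 1.5. It was encompassed by 3 and crossed by 3 structural loops, and the nearest crossing one, S150, with the downstream anchor printed above, had 6.10 in the mid-G1 map without auxin and 1.37 in the one with auxin. Its inner anchor lay 30 kb from the CRE anchor it covers, while the nearest encompassing anchor was 140 kb away.

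Loop L8785 starts at Gclc, the catalytic subunit of the enzyme that begins glutathione synthesis (chr9:77600001-77610000), and ends 200 kb away in the fatty acid elongase gene Elovl5 (chr9:77800001-77810000). Its strength was 1.13, 1.33, 1.16 and 0.777 without auxin, and 1.33, 2.05, 1.75 and 1.65 with auxin. Control cells showed a weak contact that was highest in ana/telophase and was gone by mid-G1, and the +auxin value was higher at every stage. It was crossed by 7 structural loops and encompassed by 1, S4310, which was at 5.11 in mid-G1 control cells and at 1.64 in depleted ones. The 7 crossing loops had mid-G1 strengths of 2.30 to 5.25 without auxin and of 1.05 to 1.71 with it.

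Both anchors of 3 further loops with a gain held a gene start. Loop L3659 joins Rac1, a small GTPase gene (chr5:144280001-144290000), to Cyth3, an exchange factor for ARF GTPases (chr5:144390001-144400000). Its strength was 0.896, 0.950, 0.653 and 0.739 without auxin, and 1.10, 1.17, 1.61 and 1.56 with auxin. Loop L2244 joins Khdrbs1, an RNA-binding protein (chr4:129410001-129420000), to the phosphatase gene Ptp4a2 (chr4:129490001-129500000). Its strength was 1.25, 0.908, 1.08 and 0.826 without auxin, and 0.809, 1.85, 1.88 and 1.69 with auxin. In mid-G1 the log2 changes of both were over 1, at 1.08 and 1.03, and in each an anchor of a crossing loop lay within 30 kb of a CRE anchor. Loop L7926 joins Nfkb1, a subunit of NF-κB (chr3:135350001-135360000), to the metal ion transporter gene Slc39a8 (chr3:135480001-135490000). Its strength was 1.19, 1.43, 1.13 and 0.958 without auxin, and 1.32, 1.85, 1.97 and 1.92 with auxin, a mid-G1 log2 change of 1.00.

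The last loop with a gain had another arrangement. Loop L11316 ends at Mad2l1, a gene of the spindle checkpoint (chr6:66475001-66500000), with the other anchor 275 kb upstream (chr6:66200001-66225000). Its strength was 1.32, 0.934, 1.05 and 0.714 without auxin, and 0.921, 1.23, 1.48 and 1.59 with auxin, a mid-G1 log2 change of 1.15. Unlike the other 5, it shared an anchor with its encompassing loop, and its s_i-min was 200 kb, so this one gain goes against the order by distance given above.

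The largest loss was at Slc29a3, a nucleoside transporter gene. Loop L871 joins a region with exons of Psap and Cdh23 (chr10:59760001-59770000) to the start of Slc29a3 (chr10:60210001-60220000), 450 kb away. Its strength was 1.53, 2.70, 5.26 and 6.12 without auxin, and 1.62, 1.81, 1.42 and 1.5 with auxin. In control cells it grew through G1 to one of the highest values of any member, and with auxin it stayed flat, with a mid-G1 log2 change of -2.02. It shared its upstream anchor with the encompassing loop S1320, whose strength in mid-G1 was 4.65 without and 1.15 with auxin. The single crossing loop, S4507, had its inner anchor 340 kb from the CRE anchor it covers and went from 4.99 to 1.69. Both structural loops end at the downstream anchor printed above.

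**Figure D4:**
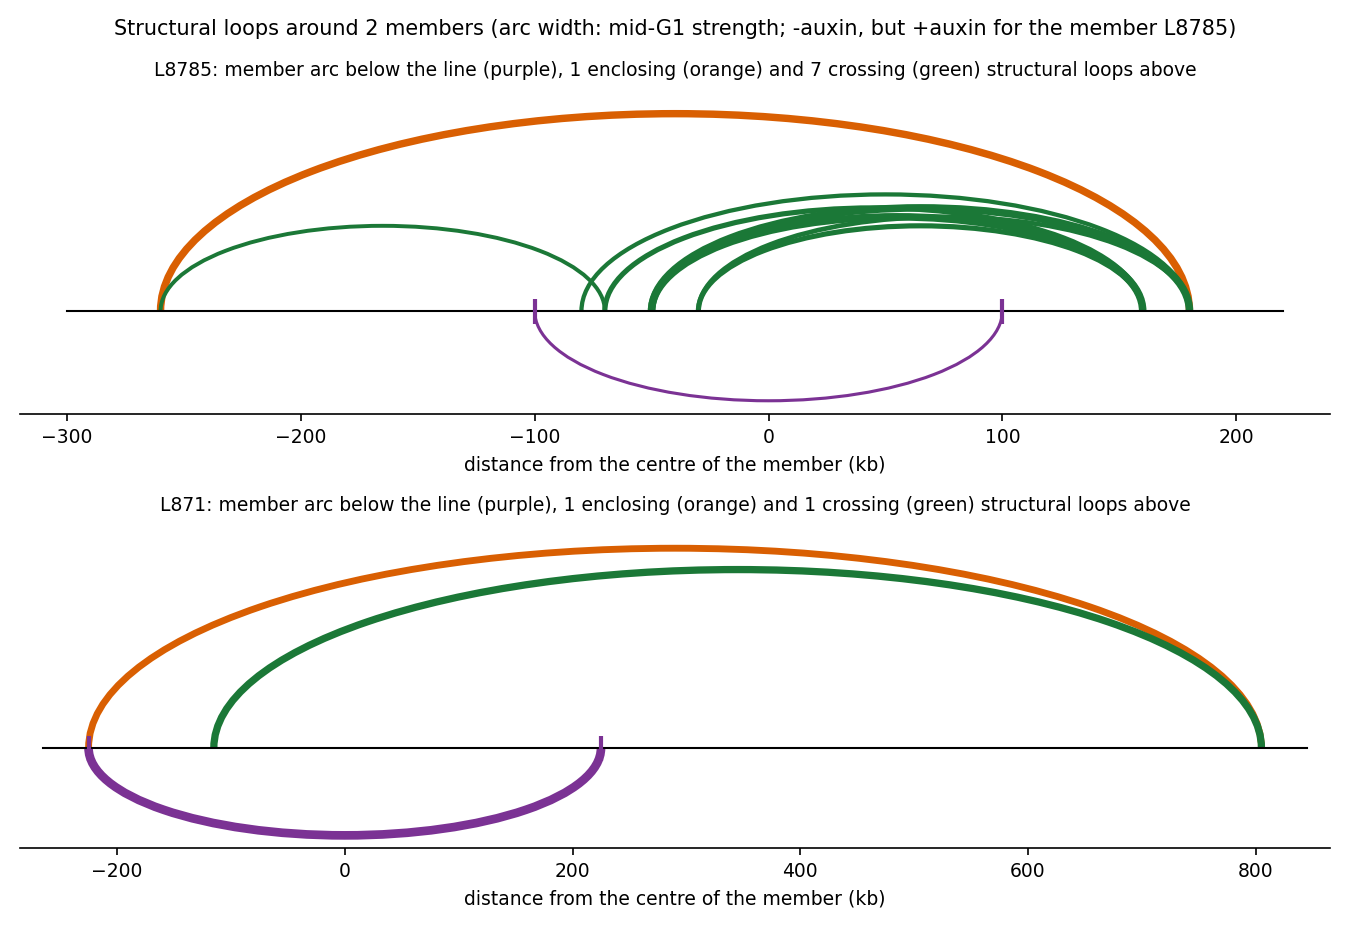
Arc maps of L8785 (top) and L871 (bottom) with distance from the centre of the member in kb; the member is the purple arc below the line, encompassing loops are orange and crossing loops green, arc width grows with mid-G1 strength without auxin (with auxin for L8785) and arc height carries no value. In L8785 a crossing anchor lies 30 kb from the CRE anchor it covers and the encompassing anchor 80 kb from a CRE anchor, whereas L871 shares an anchor with its encompassing loop and its crossing anchor is 340 kb away from the CRE anchor it covers.

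A pair of the losses ended at the same gene, Rpf1, a factor of ribosome production (chr3:146180001-146190000), and are not independent. Chromosome 3 is involved in a translocation in these cells and held 3 of the 6 losses and 1 of the 6 gains, and without its 59 members the median mid-G1 change of the others was 0.09. Loop L3538 begins 170 kb upstream (chr3:146010001-146020000), and its strength was 1.15, 1.75, 2.25 and 2.32 without auxin, and 0.845, 0.978, 1.12 and 0.849 with auxin. Loop L4904 begins 190 kb upstream (chr3:145990001-146000000), and its strength was 0.981, 1.46, 2.33 and 2.07 without auxin, and 0.803, 1.13, 1.21 and 0.946 with auxin. Neither contact stood above the local background in mid-G1 with auxin, and the log2 changes were -1.45 and -1.13. Structural loop S4766 encompassed the first and crossed the second, and it went from 2.22 to 1.14 in mid-G1 when CTCF was depleted. Each of the CRE loops had an encompassing anchor within 10 kb.

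The other 3 losses shared an anchor with an encompassing loop. Loop L1141 joins the start of Rwdd3 (chr3:120870001-120880000) to exons of the choline transporter-like gene Slc44a3 (chr3:121180001-121190000). Its strength was 1.03, 2.54, 2.77 and 3.65 without auxin, and 0.894, 1.39, 1.30 and 1.54 with auxin. Loop L7797 ends at the start of Lta4h, a leukotriene hydrolase gene (chr10:92910001-92920000), from 380 kb upstream (chr10:92530001-92540000). Its strength was 0.890, 2.70, 4.03 and 4.56 without auxin, and 0.851, 2.50, 2.46 and 1.98 with auxin. It differed little between treatments in ana/telophase (log2 change -0.11) and came apart only in G1 (-0.71 and -1.20), although 4 structural loops crossed it and its s_i-min was 30 kb. Loop L14958 joins exons of Ggt5 (chr10:75060001-75070000) to the starts of Vpreb3 and Gm5134 (chr10:75410001-75420000), and its strength was 0.747, 2.15, 2.43 and 3.12 without auxin, and 1.62, 1.06, 0.998 and 1.43 with auxin.

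**Figure D5:**
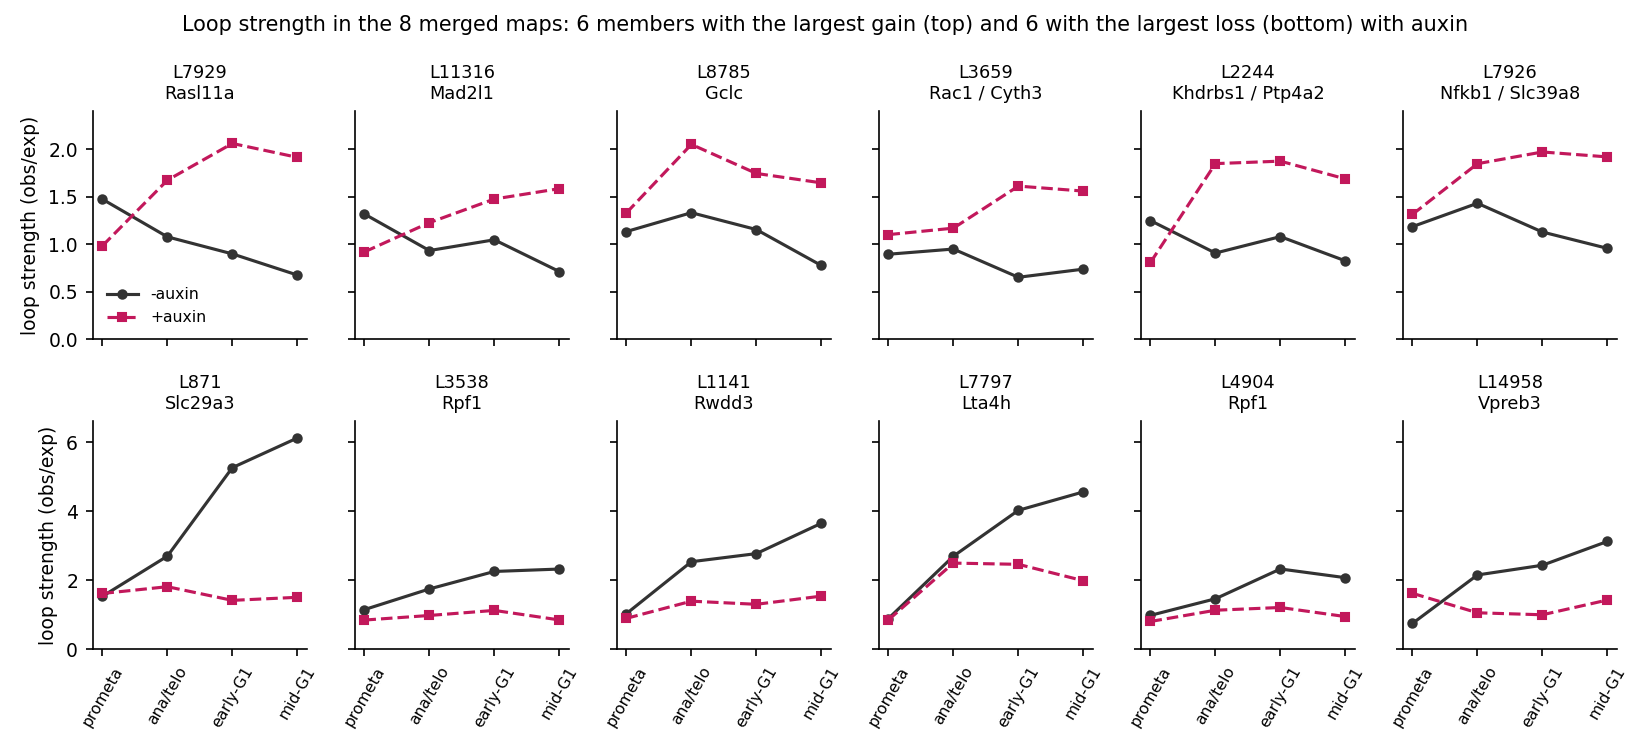
Loop strength (y axis, observed over expected contacts) at the 4 stages (x axis) in the merged maps without auxin (dark circles) and with auxin (pink squares) for the 6 members with the largest gain (top) and the 6 with the largest loss (bottom), named by loop and by the genes that start in their anchors; the rows have different y axes. The gains end in mid-G1 at 1.56 to 1.92 with auxin, and the losses start from 2.07 to 6.12 without it.

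Of the 4 members with the highest mid-G1 strength without auxin, L871 and L7797 are described above. The highest was L14219 (chr19:6630001-6640000 and chr19:6900001-6910000, the latter with exons of the kinase gene Rps6ka4), with 7.71, 8.07, 8.21 and 8.39 without auxin, and 8.57, 6.30, 9.58 and 8.34 with auxin. It was as strong in prometaphase as in G1 in both treatments, whereas the second highest prometaphase value among members without auxin was 2.13. The structural loop that encompassed it went from 2.66 to 1.36 in mid-G1 when CTCF was depleted. Loop L14210 (chr5:125080001-125090000 and chr5:125350001-125360000), between exons of Atp6v0a2, a proton pump subunit, and of Zfp664, had 1.91, 4.62, 5.80 and 7.24 without auxin, and 1.90, 3.66, 5.04 and 5.42 with auxin. It was less reduced than L871, with a mid-G1 log2 change of -0.42.

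Members with an erythroid gene at an anchor were looked at by name. Of a list of 56 regulators and haem, globin and membrane genes in the annotation, 24 had a start at an anchor of any CRE loop of at most 500 kb and 4 at a member's: Runx1, Sox6, Kel and Gypc. Of all 22202 protein-coding genes 545 had a start there. None of their loops reached a 1.5-fold mid-G1 change. Loop L4486 runs from a start of Runx1, a haematopoietic transcription factor (chr16:92820001-92830000), to a place with no protein-coding gene 370 kb away (chr16:93190001-93200000). Its strength was 1.03, 2.01, 2.00 and 1.56 without auxin, and 1.67, 1.99, 2.29 and 1.81 with auxin. It was encompassed by 8 structural loops and crossed by 1, S4701, whose mid-G1 strength hardly differed (1.89 and 1.95).

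Loop L11259 joins sites within Sox6, a regulator that represses embryonic globin genes (chr7:122675001-122700000 and chr7:122975001-123000000). Its strength was 1.24, 1.26, 1.49 and 1.47 without auxin, and 0.956, 1.40, 1.47 and 1.61 with auxin. Loop L8125 ends at the start of the blood group gene Kel (chr6:41650001-41660000), 150 kb from its other anchor (chr6:41500001-41510000), and had 1.01, 1.26, 1.38 and 1.53 without auxin, and 0.898, 1.61, 1.66 and 1.70 with auxin. The mid-G1 log2 changes were 0.13 and 0.15. A pair of loops joined Gypc, the gene of glycophorin C, to Wdr36, and L6257, the wider one, had 0.987, 1.64, 2.14 and 1.79 without auxin, and 1.47, 2.16, 2.67 and 1.84 with auxin. Both Gypc loops were called only with auxin, although their mid-G1 log2 changes were small, at 0.04 and 0.34.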

How the data were processed

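The authors aligned the in situ Hi-C reads to mm9 with Bowtie2, merged the replicates of each condition, balanced the maps and called loops at 10 and 25 kb. A loop was assigned by them to a category by CTCF and cohesin peaks and H3K27ac in 30 kb around each anchor. Loop strength as deposited, a ratio over 9 pixels with a donut of surrounding pixels as the expectation, moves with its surroundings as well as with the pixel. The authors gave boundary strength (ΔIS) as a signal: the boundary's own insulation score, not logged, was taken from the maximum found up to 120 kb away. The 2 tables used hold no contact counts, so the counting error of a value is unknown here, and single-replicate maps were not used here.

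Members were found from anchor midpoints, with ends included for encompassing and excluded for crossing. A change is log2 of the +auxin over the -auxin ratio, with no pseudocount, since no member had a value of 0. Shares have 95% Wilson intervals, which cover counting error only. Gene starts came from GENCODE vM1 and motifs from the mm9 sequence. The geometry was checked on simulated loops. Members, lists and limits were chosen with earlier results of these data known. Named loops were those with a strength of at least 1.5 in 1 map and 1 sign of change after mitosis (the 6 largest gains and 6 largest losses in mid-G1), the 4 strongest in mid-G1 without auxin, and those at starts of an erythroid list. Python 3.11.15 with pandas 2.3.3, scipy 1.17.1 and networkx 3.6.1 was used.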

Additional observations from a re-analysis of the deposited data

How the results depend on the processing

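No paired analysis was possible because the tables used here hold 1 merged value per condition, and for the same reason no replicate was left out. Of the alternatives, 22 moved a value as given here and 99 stayed within the interval, the spread over chromosomes or the 1.5-fold range of the main value. In prometaphase, ana/telophase and mid-G1 that spread (0.13, 0.10 and 0.15) was larger than the members' median change (0.02, 0.06 and 0.09). At these stages a change of sign could still count as staying, so the count says little about these medians. The median early-G1 change was 0.05 as the log2 ratio of mean strengths, below its spread over chromosomes. The median mid-G1 change of members lay between 0.01 (log2 ratio of mean strengths) and 0.13 (crossing margin of 20 kb) under the alternatives run over all sizes, but was -0.03 in members over 300 kb, where the early-G1 median was -0.02. The number of members was 1263 with dual-function loops counted as structural too, 339 with structural loops under 2 in mid-G1 without auxin left out, and 339 with only structural loops at 10 kb. With a margin of 20 kb for encompassing, 31.7% were called only without auxin and 5.32% were at least 1.5-fold weaker. A 2-fold limit left 2.57% of members weaker and 1.10% stronger, so that more were weaker, the opposite of the order at 1.5-fold, with no 2-fold share of other loops to set beside it. Called only without auxin were 31.0% of members up to 200 kb and 49.2% over 300 kb, and only with auxin 46.4% over 200 to 300 kb and 30.0% over 300 kb. The peak in ana/telophase was found in 32.0% of members up to 200 kb and 16.2% over 300 kb, the median s_i-min was 100.0 kb over 200 to 300 kb and 121.25 kb over 300 kb, and cluster3 held 18.5% of boundaries inside members up to 200 kb. Encompassing and crossing anchors held the motif at 83.4% and 81.7% in 30 kb windows (50.6% of all such windows), at 70.3% and 70.2% with the final A of the motif left off (37.8% of tiles), and at 28.6% and 25.5% with the stricter motif, added after seeing the data. Also added then were the limits on distance, 1 value for each of the 308 linked groups of members (median 0.09, above 0 in 186 groups) and the exclusion of members with a structural pixel within 20 kb (0.11).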
